A study of Mus musculus with 2 samples.

Results

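The genes described here are 42 genes of the sarcomere, the Z-disc and the response to mechanical stress, measured as single-cell RNA counts in mouse hearts. They were chosen by symbol from the 55357 genes listed in the count tables, and all 42 were found there. The hearts came from C57BL/6 mice, and the animals with transverse aortic constriction (TAC) were males operated on at 8 weeks of age and kept for 6 weeks after ligation of the aortic arch. The Sham mice had the same operation with the aorta left unconstricted according to the sample labels, whereas the series design calls its controls uninjured, and the labels give neither their age nor their time after surgery. Each condition was 1 library that pooled 3 to 5 hearts, so no value below has a replicate and no test between conditions was possible. All intervals cover counting error only, and a gap between the libraries cannot be told apart from a gap between pools of animals, dissociations or library preparations.

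The sarcomere is the contractile unit of heart muscle, in which myosin thick filaments slide along actin thin filaments. Its borders are the Z-discs, which anchor the thin filaments and the elastic protein titin, and which also hold LIM and PDZ proteins that sense tension. Pressure overload stretches the heart wall, and ankyrin repeat and Xin proteins of the Z-disc and intercalated disc are known as genes that respond to such load. In a dissociated heart, transcripts that leak from broken cardiomyocytes can reach droplets holding other cells. A low, even level of these genes outside cardiomyocytes can therefore be background rather than expression.

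The Sham library held 9935 barcodes with 28146691 unique molecular identifiers (UMIs, each a counted RNA molecule), and the TAC library held 9932 barcodes with 29108986. The libraries shared 32 barcodes. After calls of doublets and clustering without the 42 genes, 2510 Sham and 2396 TAC cells were named cardiomyocytes, with 13477040 and 13117145 UMIs and medians of 4508 and 4917 UMIs per cell. All 10 cardiomyocyte markers fixed for naming were detected in them, at a summed 37938 and 39779 UMIs per 1000000, against 74.1 and 105 for 8 fibroblast markers, 44.7 and 48.9 for endothelial, 19.1 and 28.1 for macrophage, 278 and 383 for pericyte, 593 and 621 for smooth muscle and 638 and 691 for adipocyte markers. The last 3 sums came mainly from 1 gene each, Abcc9 (228 and 312), Smtn (587 and 613) and Lpl (637 and 691). Several features of RNA quality moved with the condition: mitochondrial genes held 0.260% of Sham and 0.144% of TAC cardiomyocyte UMIs, the nuclear RNA Malat1 held 13.1% and 16.2%, and Neat1 was at 7550 and 3752 per 1000000. Ribosomal protein genes held 0.125% and 0.131%. In both libraries the mitochondrial share was thus low and the Malat1 share high, although the labels say single cells. Whether the counts came from whole cells or largely from nuclear RNA was not tested, which limits every level and ratio below. Genes usually read as signs of a loaded heart did not share a direction in the library labelled TAC: Nppa was at 15.5 per 1000000 in Sham and 11.7 in TAC, Nppb at 38.1 and 29.4, Acta1 at 33.8 and 12.0, and Myh7 at 609 and 826. Nppa, Nppb and Acta1 were thus lower in the library labelled TAC, and the direction of every TAC to Sham ratio below rests on the labels of the libraries alone.

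The 42 genes together gave 1123229 UMIs in Sham and 879062 in TAC cardiomyocytes, which was 8.33% and 6.70% of all UMIs of those cells. Most of that gap came from Ttn, which held 3.91% and 2.48%, while the other 41 genes held 4.43% and 4.23%, a ratio of 0.955 (95% counting interval 0.952 to 0.959). Levels are given as UMIs per 1000000 cardiomyocyte UMIs, and a gene was counted as higher or lower when its TAC to Sham ratio was at least 1.5-fold from 1, with its 95% counting interval on that side, and it had at least 50 UMIs over both libraries. Of 41 genes with enough UMIs, 5 were lower in TAC (Ttn, Mybpc3, Myom2, Xirp1 and Xirp2), 1 was higher (Myl4) and 35 were neither. Among all 13302 genes tested in the same cells, 6.09% were lower and 11.9% were higher. At least 1000 UMIs were counted for 39 of the 42 genes, of which 5 were lower and 0 higher, beside 4.54% lower and 4.41% higher among the 3741 genes with that many UMIs. The median ratio of the 41 genes was 0.963, against 1.02 for all genes tested and 0.984 for those with at least 1000 UMIs. Smaller differences were common: the interval lay above 1 for 14 genes, below 1 for 22 and held 1 for 5. With mitochondrial UMIs left out of the total 5 genes were lower and 1 higher, and with Malat1 left out 4 were lower (Mybpc3, at 0.675, was not) and 2 higher (Myl4, and Tpm1 at 1.501). Among cells with a mitochondrial share at or under the median of their library 5 were lower and 1 higher, and among those over it 7 and 1, with Tnnt2 (0.647) and Ankrd23 (0.633) added to the lower genes. The part of Neat1 was not tested.

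**Figure D1:**
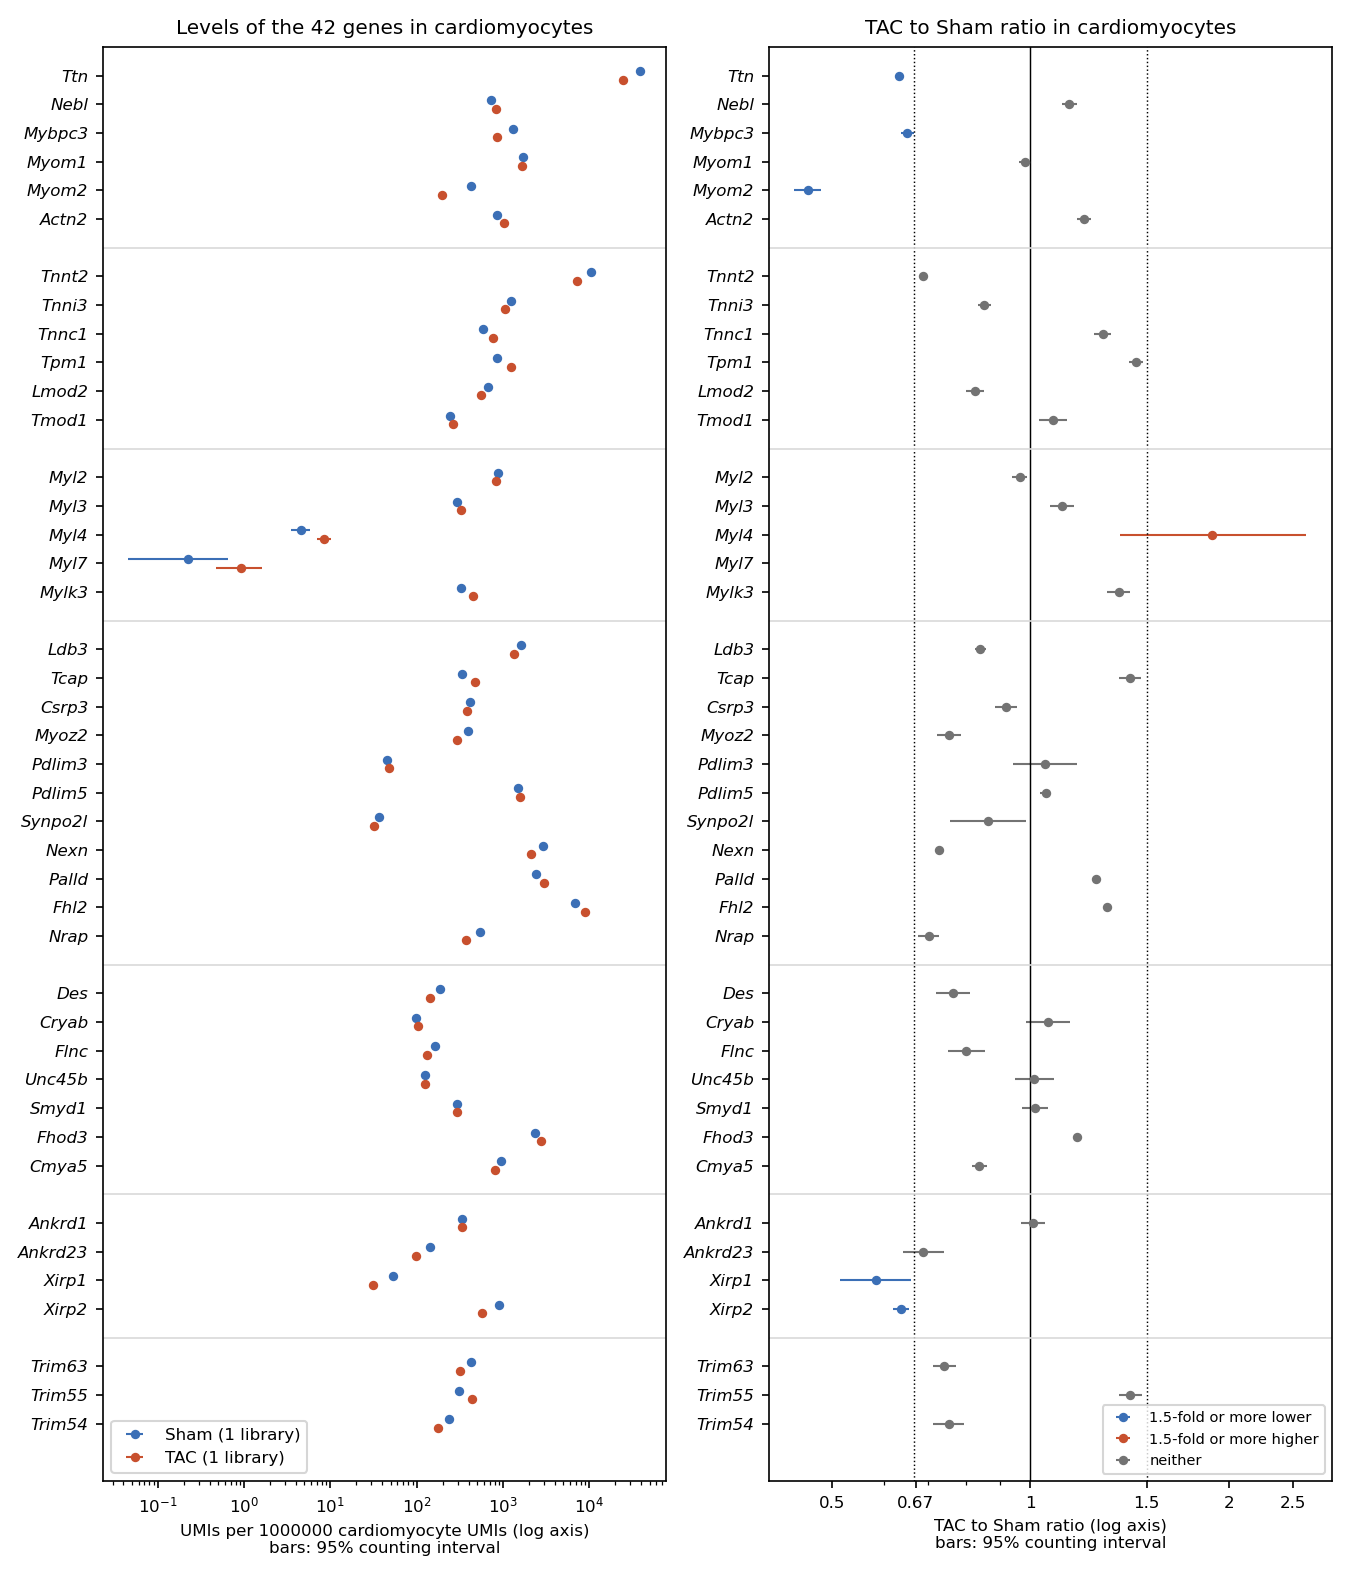
Levels of the 42 genes in cardiomyocytes (left, UMIs per 1000000 cardiomyocyte UMIs on a log axis, 1 point per library) and their TAC to Sham ratios (right, log axis), with bars for the 95% counting interval, grouped by role. Ttn, Mybpc3, Myom2, Xirp1 and Xirp2 lie beyond the 1.5-fold line on the lower side, and Myl4, with 61 and 112 UMIs, beyond it on the upper side.

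The sarcomere backbone held 3 of the 5 lower genes. Ttn (ENSMUSG00000051747, chr2:76703980-76982547 on the minus strand of GRCm38) encodes titin, the spring that spans from Z-disc to M-line. It gave 526829 UMIs in Sham and 324663 in TAC, or 39091 and 24751 per 1000000, a ratio of 0.633 (95% counting interval 0.630 to 0.636). Mybpc3 (ENSMUSG00000002100, chr2:91118144-91136516, plus strand), cardiac myosin binding protein C of the thick filament, was at 1325 per 1000000 in Sham and 862 in TAC, a ratio of 0.651 (0.636 to 0.667). Myom2 (ENSMUSG00000031461, chr8:15057653-15133541, plus strand), an M-band protein that links thick filaments, was at 425 and 196, a ratio of 0.460 (0.439 to 0.482). Its relative Myom1, which also crosslinks thick filaments at the M-band, was at 1716 and 1683, a ratio of 0.980 (0.963 to 0.999), so that the 2 myomesin genes differed in how far TAC stood from Sham. Actn2, the actinin that crosslinks actin at the Z-disc, was at 851 and 1027, and Nebl, the nebulette gene, was at 732 and 839. Their ratios of 1.21 and 1.15 did not reach 1.5-fold.

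For Myom2 and Mybpc3, though not for Ttn, the same counts also gave a lower share of TAC cardiomyocytes with a UMI. When each cell was thinned to 1000 UMIs, which left out 35 Sham and 10 TAC cardiomyocytes, Myom2 had at least 1 UMI in 32.6% of Sham (exact Clopper-Pearson 95% interval 30.7 to 34.5%) and 16.6% of TAC cells (15.1 to 18.2%). Without thinning those shares were 71.0% and 50.9%. In fibroblasts, which should lack the gene, 1.83% and 0.885% of thinned cells had a UMI, and the median depths there were 2155 and 2269 UMIs per cell. Mybpc3 had a UMI in 70.7% and 57.2% of thinned cardiomyocytes (7.74% and 3.98% of fibroblasts), and 95.02% and 92.3% of cardiomyocytes before thinning. Ttn was seen in nearly every cardiomyocyte of both libraries, and also in 52.0% and 38.2% of thinned fibroblasts, a type that should lack it.

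No thin filament regulator passed 1.5-fold, and the 6 genes moved to both sides. Tnnt2, which encodes cardiac troponin T, gave 142556 and 95247 UMIs, or 10578 and 7261 per 1000000, and its ratio of 0.686 (0.681 to 0.692) lay just outside the limit. Tnni3, the inhibitory troponin subunit, was at 1227 and 1045, a ratio of 0.852. Tnnc1, the calcium-binding subunit of the same complex, was on the other side of 1, at 596 and 767, a ratio of 1.29. Thus the genes for the subunits of 1 troponin complex did not share a direction. Tpm1, the tropomyosin that lies along the actin filament, was at 856 and 1239, and its ratio of 1.45 (1.41 to 1.48) lay just outside the limit on the higher side. Lmod2, leiomodin of the filament's pointed end, was at 673 and 554, and the capping protein gene Tmod1 was at 243 and 262, with ratios of 0.824 and 1.08.

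Of the myosin light chain genes, the ventricular Myl2 was at 875 and 843 per 1000000 and Myl3 at 295 and 330, with ratios of 0.963 and 1.12. The atrial light chain gene Myl4 was the 1 higher member, at 4.53 in Sham and 8.54 in TAC, a ratio of 1.89 (1.37 to 2.62). It rested on 61 and 112 UMIs in 47 and 77 cells, and some other cell types held it at a like level, with 3.69 and 8.09 in fibroblasts, 4.52 and 6.81 in endothelial cells and 4.90 and 4.16 in pericytes. Macrophages held less, at 1.36 and 1.92. Myl4 was therefore not specific to cardiomyocytes in these libraries. The other atrial light chain gene, Myl7, gave 3 UMIs in 1 Sham cell and 12 UMIs in 8 TAC cells, too few to be tested. Mylk3, the kinase that phosphorylates the ventricular regulatory light chain, was at 327 and 445, a ratio of 1.36 (1.31 to 1.41).

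All 11 Z-disc genes stayed within 1.5-fold, with a median ratio of 0.919 and a range from 0.701 to 1.42. On the higher side were Tcap, the titin cap at the Z-disc, at 337 and 478 per 1000000 (ratio 1.42, 1.36 to 1.47), the LIM protein gene Fhl2 at 6817 and 8917 (1.31, 1.30 to 1.32) and Palld, the actin-binding palladin gene, at 2401 and 3017 (1.26). On the lower side were Nrap, which anchors actin at the cell junction, at 538 and 377 (0.701), Nexn, the actin-binding nexilin gene, at 2882 and 2098 (0.728), and Myoz2, whose product binds calcineurin at the Z-disc, at 393 and 296 (0.754). Fhl2 was therefore counted more often and Nexn less often in TAC, although both encode proteins of the same structure. Ldb3, a PDZ and LIM protein gene, was at 1609 and 1351 (0.840), Synpo2l at 37.0 and 31.9 (0.863) and Csrp3, the muscle LIM protein gene, at 415 and 382 (0.919). Pdlim5 was at 1497 and 1578 and Pdlim3 at 45.6 and 48.0, both with a ratio of 1.05, and the interval of Pdlim3 held 1 (0.940 to 1.18).

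Filament and chaperone genes also stayed within the limit. Des, the intermediate filament gene desmin, was at 187 and 143 per 1000000 (ratio 0.764), Flnc, the actin crosslinker filamin C, at 163 and 131 (0.80), and Cmya5 at 958 and 801 (0.837). The chaperone genes lay near 1: the small heat shock protein gene Cryab was at 98.2 and 105, the myosin chaperone gene Unc45b at 124 and 126 (1.01, 0.946 to 1.09) and Smyd1, a methyltransferase gene needed to assemble myosin, at 293 and 298 (1.02). Fhod3, a formin that builds thin filaments, was at 2344 and 2757 (1.18). Of the muscle RING ligase genes, whose products tag muscle proteins for breakdown, Trim63 was at 425 and 315 (0.741) and Trim54 at 238 and 179 (0.752), whereas Trim55 was at 311 and 440 (1.42, 1.36 to 1.48). Trim55 thus lay on the opposite side of 1 from its 2 relatives.

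The genes named for mechanical stress did not show a common higher level in TAC. Both Xin genes were lower. Xirp1 (ENSMUSG00000079243, chr9:120013755-120023598, minus strand) was at 53.2 and 31.0 per 1000000, a ratio of 0.583 (0.515 to 0.660), and Xirp2 (ENSMUSG00000027022, chr2:67446002-67526614, plus strand) at 891 and 568, a ratio of 0.637 (0.619 to 0.656). Their products bind actin at the intercalated disc. Xirp1 lies wholly within Cx3cr1 on the same strand, over 9844 bases, so that its reads and those of Cx3cr1 (211 and 190 UMIs) could be split by the counting. Same-strand overlaps also limit Nexn, with Gm43185 (6278 and 5240 UMIs), Palld, with Gm18066 (481 and 230), and Trim55, with BC002189 (292 and 451). Further ones are Tnni3 with Dnaaf3 (125 and 158), Ankrd23 with Gm42417 (14 and 11) and Myom1 with Gm26561, which has no counts. Thinned to 1000 UMIs, Xirp2 had a UMI in 51.0% of Sham and 36.8% of TAC cardiomyocytes, and in 2.02% and 1.67% of fibroblasts. Ankrd23 was at 141 and 97.3, and its ratio of 0.689 (0.641 to 0.740) lay just outside the limit.

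Ankrd1 (ENSMUSG00000024803, chr19:36111961-36120099, minus strand), the cardiac ankyrin repeat protein that binds titin and enters the nucleus, had the same mean level in both libraries. It was at 332 per 1000000 in Sham and 335 in TAC, a ratio of 1.01 (0.969 to 1.05). Its spread over cells was not the same. It was counted in 844 of the 2510 Sham cardiomyocytes and in 647 of the 2396 TAC cardiomyocytes, and in 17.1% (15.6 to 18.6%) and 13.3% (11.9 to 14.7%) of cells thinned to 1000 UMIs, against 2.07% and 0.787% of fibroblasts. In cells thinned to 2000 UMIs, the 5% of cells with most Ankrd1 held 52.7% of its UMIs in Sham and 65.8% in TAC, and the variance of its counts over cells was 4.99 and 7.0 times the mean. For Xirp2 that top 5% of cells held 24.3% and 25.7% of the UMIs, and for Ttn 11.8% and 10.8%. An Ankrd1 UMI was thus found in a smaller share of TAC cells, and more of its UMIs came from the cells with most of it.

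Promoter sequences are shown for 3 of the lower genes and for Ankrd1, from the RefSeq table on GRCm38.p6, as 250 bases before to 50 bases after the RefSeq start of the gene. That start is the one of the coordinates given above for Ttn, Mybpc3 and Xirp2, but for Ankrd1 it lies 255 bases downstream of the GENCODE start, so that its window falls inside the GENCODE gene. Of the 42 genes, 35 had a window that could be used. Capitals mark the MEF2 site, the motif of the muscle factor MEF2, in the first 3 sequences and the M-CAT motif (CATTCC, here read on the opposite strand as GGAATG), known from TEAD factors, in Ankrd1.
Ttn, chr2:76982498-76982797, minus strand: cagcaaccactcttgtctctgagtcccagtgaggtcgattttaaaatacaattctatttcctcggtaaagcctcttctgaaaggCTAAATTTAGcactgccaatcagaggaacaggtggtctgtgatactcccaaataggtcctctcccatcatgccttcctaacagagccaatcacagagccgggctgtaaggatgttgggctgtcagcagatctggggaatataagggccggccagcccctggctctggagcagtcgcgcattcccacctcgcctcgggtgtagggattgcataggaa
Mybpc3, chr2:91117894-91118193, plus strand: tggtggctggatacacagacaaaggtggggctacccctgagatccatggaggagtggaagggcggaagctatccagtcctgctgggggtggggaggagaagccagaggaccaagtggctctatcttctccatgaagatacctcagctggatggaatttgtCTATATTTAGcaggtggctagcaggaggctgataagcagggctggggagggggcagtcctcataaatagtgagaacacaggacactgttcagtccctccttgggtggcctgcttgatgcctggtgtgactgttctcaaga
Xirp2, chr2:67445752-67446051, plus strand: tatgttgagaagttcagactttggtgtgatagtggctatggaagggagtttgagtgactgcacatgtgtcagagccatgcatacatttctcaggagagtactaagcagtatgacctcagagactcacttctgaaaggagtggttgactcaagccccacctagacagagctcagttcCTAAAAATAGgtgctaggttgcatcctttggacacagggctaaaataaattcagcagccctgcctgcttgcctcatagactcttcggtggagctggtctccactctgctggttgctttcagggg
Ankrd1, chr19:36119795-36120094, minus strand: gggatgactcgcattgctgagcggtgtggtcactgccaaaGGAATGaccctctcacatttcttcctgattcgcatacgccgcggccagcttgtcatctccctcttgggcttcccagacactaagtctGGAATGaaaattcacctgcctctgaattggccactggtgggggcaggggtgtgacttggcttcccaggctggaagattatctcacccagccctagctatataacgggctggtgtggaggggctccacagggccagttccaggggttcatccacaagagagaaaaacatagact
The MEF2 match began 166 bases before the start site in Ttn, 90 before it in Mybpc3 and 74 before it in Xirp2. On either strand, 6 of the 35 genes (17.1%) held a MEF2 match, namely Fhl2, Mybpc3, Myoz2, Synpo2l, Ttn and Xirp2, against 3.70% of the 27025 genes in the table. Thus all 3 lower genes with a window held one, but so did Fhl2, which lay on the higher side. A CArG box, the motif of serum response factor, was in 6 of the 35 (Fhl2, Ldb3, Myl3, Myl7, Myom1 and Nebl) and in 1.81% of all genes. M-CAT was in 16 of the 35 (45.7%, against 16.6% of all genes) and the TATA box (TATAAA, a string that can overlap a MEF2 site) in 6 (17.1%, against 15.7%). These matches are strings of letters in a window and do not show that a factor was bound.

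All cells of both libraries, of every type, were also clustered together, again without the 42 genes and with no correction between libraries. The clusters named cardiomyocytes there were one led by Pdzrn4 and Fgf14 and one led by Ptgds. The Pdzrn4 cluster held 776 Sham cells (30.9%) and 1357 TAC cells (56.6%), and the Ptgds cluster held 1734 (69.1%) and 1042 (43.4%), with median depths of 5554 and 5508 against 4075 and 4195 UMIs. Of the 41 genes with enough UMIs, Ankrd1 differed most between these clusters in both libraries. In Sham it was at 187 per 1000000 in the Pdzrn4 cluster and 418 in the Ptgds cluster, 2.23-fold higher (2.08 to 2.40), and in TAC at 170 and 613, 3.61-fold higher (3.39 to 3.85). Ankrd23 was 1.91-fold higher in the Ptgds cluster in Sham and 1.72-fold in TAC, and Flnc 1.69-fold and 1.38-fold. At 1.5-fold, 3 genes were higher in the Ptgds cluster in Sham (Ankrd1, Ankrd23 and Flnc) and 0 lower, where 2.55% and 2.99% of all genes were higher and lower. In TAC 2 were higher (Ankrd1 and Ankrd23) and 1 lower (Myl4), where 2.25% and 2.98% of all genes were. The medians of the 41 genes were 1.10 and 1.06, near 1 as for all genes (1.0 and 0.989).

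**Figure D2:**
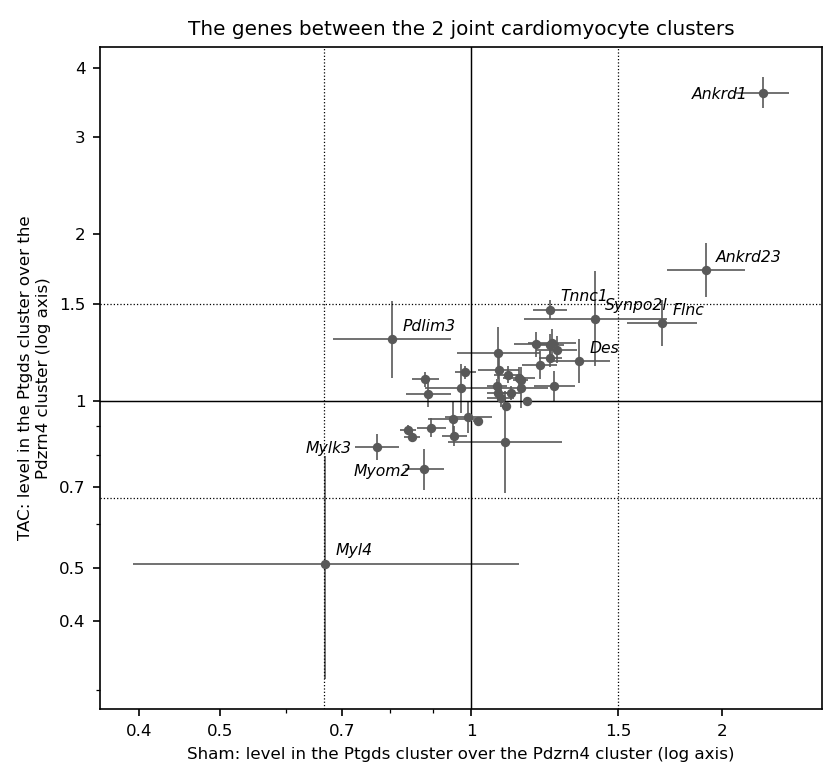
Level of each gene in the Ptgds cluster over its level in the Pdzrn4 cluster, in Sham (x, log axis) and TAC (y, log axis), with bars for the 95% counting interval. Ankrd1 lies apart at 2.23 and 3.61, followed by Ankrd23 at 1.91 and 1.72, while most genes lie near 1 in both libraries.

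Since the TAC library held more cells of the Pdzrn4 cluster, the TAC to Sham ratios were read within each cluster as well. Ankrd1 had a ratio of 0.909 (0.836 to 0.989) in the Pdzrn4 cluster and 1.47 (1.40 to 1.54) in the Ptgds cluster, so that its equal mean over all cardiomyocytes was made of 2 clusters on opposite sides of 1. Pdlim3 also lay on opposite sides, with 0.830 (0.705 to 0.978) and 1.34 (1.14 to 1.57). The 5 lower genes were below 1 in both clusters. Ttn had 0.679 and 0.603, Mybpc3 0.699 and 0.673, Myom2 0.468 and 0.40, Xirp1 0.657 and 0.505, and Xirp2 0.670 and 0.679, which leaves Ttn outside the limit in the Pdzrn4 cluster and Mybpc3 and Xirp2 outside it in both. On the higher side, Tpm1 had 1.29 and 1.61, Tcap 1.45 and 1.53, and Trim55 1.30 and 1.51, so these passed 1.5-fold in the Ptgds cluster alone. Tnnt2, at 0.758 and 0.650, passed the limit on the lower side there.

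In Sham alone, 153 cardiomyocytes formed a further cluster led by Cenpf, Gm12381 and Pirt, to which no TAC cluster corresponded. Ankrd1 was at 459 per 1000000 in it, 1.42 times its level in the other Sham cardiomyocytes, and Xirp2 at 1147, 1.31 times. Without these cells the TAC to Sham ratio of Ankrd1 was 1.04 and that of Xirp2 0.649, and 5 genes were still lower and 1 higher.

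A fixed list held 74 other genes, many of the sarcomere and Z-disc but some not, such as Cacybp, Hsp90aa1 and Srf. Of these, 63 had enough UMIs, of which 6 were higher in TAC, 6 lower and 51 neither, with a median ratio of 0.988. Among all 13302 genes tested, 11.9% were higher and 6.09% lower. The highest of those counted were Pdlim7, a PDZ and LIM protein gene (16.6 and 28.3 per 1000000), Tnnt1, the slow skeletal troponin T gene (5.05 and 8.00), Mylk4, a myosin light chain kinase gene (133 and 209), and Cacybp (4.90 and 7.70). The lowest were Acta1, the skeletal actin gene, with a ratio of 0.355, Tpm2, another tropomyosin gene, with 0.383, Myh7b with 0.549 and Myot, the myotilin gene of the Z-disc, with 0.568. Myh6, the main myosin heavy chain gene of the mouse heart, had a ratio of 0.858.

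Several genes are overlapped by a gene on the opposite strand, and those partners were read in the same cardiomyocytes. Of 19 such partners with enough UMIs, over 17 of the 42 genes, 8 were at least 1.5-fold higher in TAC and 1 was lower, with a median ratio of 1.31. Among all 6506 genes tested that overlap another on the opposite strand, 16.5% were higher and 5.06% lower, with a median of 1.04. Gm13938, opposite Ttn, had 1305 UMIs in Sham and 2222 in TAC, a ratio of 1.75 (1.63 to 1.87) where Ttn had 0.633. Gm13601, opposite Xirp2, had 641 and 1408 UMIs, a ratio of 2.26 where Xirp2 had 0.637. Thus 2 of the lower genes had an opposite-strand partner on the higher side.

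The other 6 higher partners lay opposite genes that stayed within 1.5-fold. Unc45bos, opposite Unc45b, had 90 and 381 UMIs (4.35-fold), AA672651, opposite Mylk3, had 185 and 662 (3.68-fold), Ccdc63, opposite Myl2, 22 and 76 (3.55-fold), and 4930512H18Rik, opposite Palld, 1441 and 4181 (2.98-fold). Tpgs2, opposite Fhod3, had 2.56-fold and Gm4814, opposite Cmya5, 2.09-fold more in TAC. Gm44321, opposite Smyd1, was the lower one, at 0.636. In each of the joint clusters the intervals of all 8 higher partners lay above 1, for example 1.80 and 1.87 for Gm13938 and 3.26 and 5.6 for Unc45bos. The sources used here do not state whether the counting used strand, and without strand the reads of a gene and its opposite partner cannot be told apart.

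**Figure D3:**
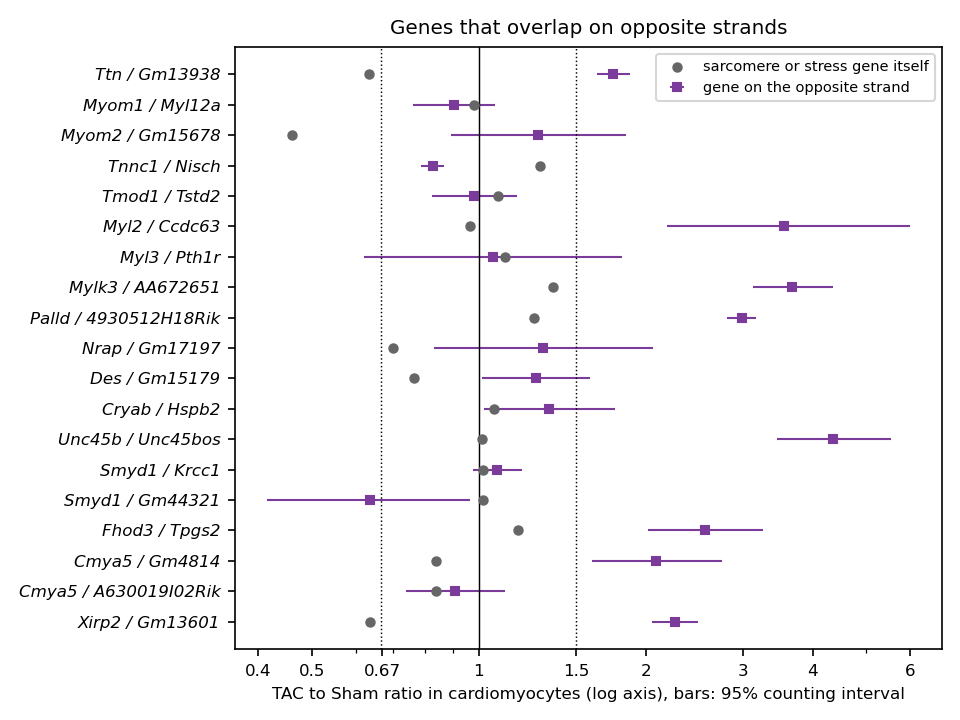
TAC to Sham ratio in cardiomyocytes (log axis, bars for the 95% counting interval) of each gene and of the gene that overlaps it on the opposite strand. Gm13938 and Gm13601 lie above 1.5 while Ttn and Xirp2 lie below 1, and Unc45bos is farthest to the right at 4.35.

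Outside cardiomyocytes the 42 genes were mostly at a small fraction of their cardiomyocyte level. Their share of UMIs was 0.339% in Sham and 0.273% in TAC fibroblasts, 0.631% and 0.479% in endothelial cells, 0.474% and 0.320% in macrophages and 0.430% and 0.323% in pericytes. The median gene stood at 0.0490 of its cardiomyocyte level in Sham fibroblasts and 0.0935 in Sham endothelial cells, and at 0.0451 and 0.0763 in TAC. RNA from a single source should keep its genes in 1 ratio in every type, so a gene was counted as above free RNA where its ratio of type to cardiomyocyte was at least 3 times the highest of 8 reference genes in both libraries. By that rule 0 of the 42 genes stood out in fibroblasts, endothelial cells, macrophages or pericytes. The reference genes did not themselves share 1 ratio, spanning 0.0714 to 0.700 in Sham endothelial cells, so the rule was blunt there. Against the median of the reference genes instead, Unc45b and Pdlim3 in endothelial cells, Tmod1 in macrophages, Des and Pdlim3 in pericytes and Pdlim3 in fibroblasts would count, together with the sparse Myl4.

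**Figure D4:**
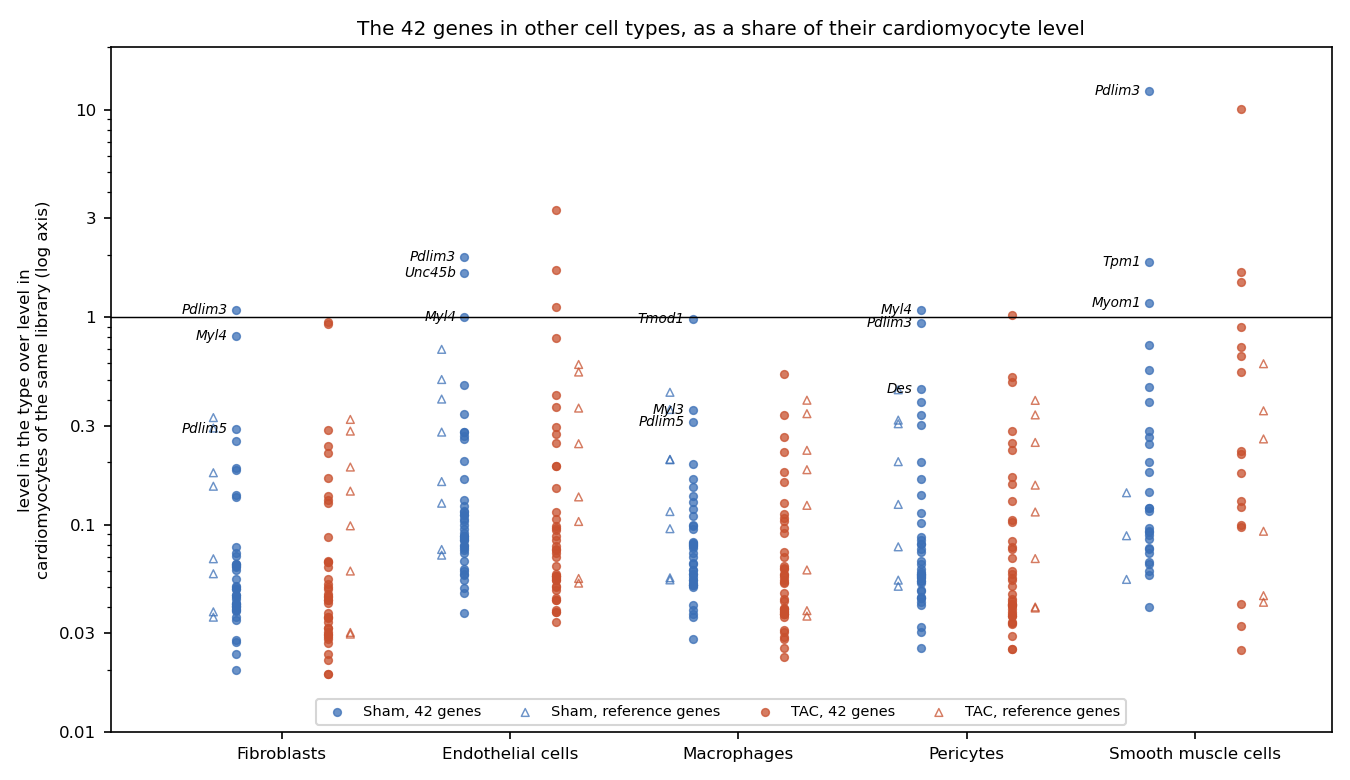
Level of each of the 42 genes in 5 other cell types over its level in cardiomyocytes of the same library (log axis, 1 point per gene and library), with the free RNA reference genes beside them. Most genes lie below 0.1, while Pdlim3 reaches 12.2 in smooth muscle cells and Unc45b 1.63 in endothelial cells.

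Unc45b had its highest level outside cardiomyocytes. In endothelial cells it was at 202 per 1000000 in Sham (185 to 221) and 141 in TAC (129 to 155), 1.63 and 1.12 times its cardiomyocyte level, and at 6.08 and 6.55 in fibroblasts and 7.24 and 4.98 in macrophages. That was 29.4 and 24.1 times the median of the other non-cardiomyocyte types. Within endothelial cells it was spread over the cluster led by Ablim3 and Ccdc85a (240 and 176) and the one led by Lhx6 (193 and 161), and lower in the one led by Tmem108 and Nrg1 (76.3 and 46.7).

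Nebl and Pdlim3 were each high in 1 endothelial cluster, shown after their values had been seen. Nebl was at 197 and 230 per 1000000 over all endothelial cells, 0.269 and 0.274 of its cardiomyocyte level. In the endothelial cluster led by Mannr and Gja5, with 35 Sham and 113 TAC cells, it was at 2712 (2280 to 3202) and 2414 (2182 to 2665), from 139 and 394 UMIs, which was 3.70 and 2.88 times its cardiomyocyte level and 19.0 and 21.2 times the rest of the endothelial cells. Pdlim3, which encodes an actinin-associated LIM protein, was at 519 (446 to 602) and 707 (644 to 774) in the endothelial cluster led by Tmem108 and Nrg1, with 193 Sham and 303 TAC cells. That was 11.4 and 14.7 times its cardiomyocyte level, and 28.6 and 47.8 times the rest of the endothelial cells. Neither gene was high in the other's cluster, since Pdlim3 had 0 and 3 UMIs in the Mannr cluster and Nebl was at 111 and 101 in the Tmem108 cluster.

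**Figure D5:**
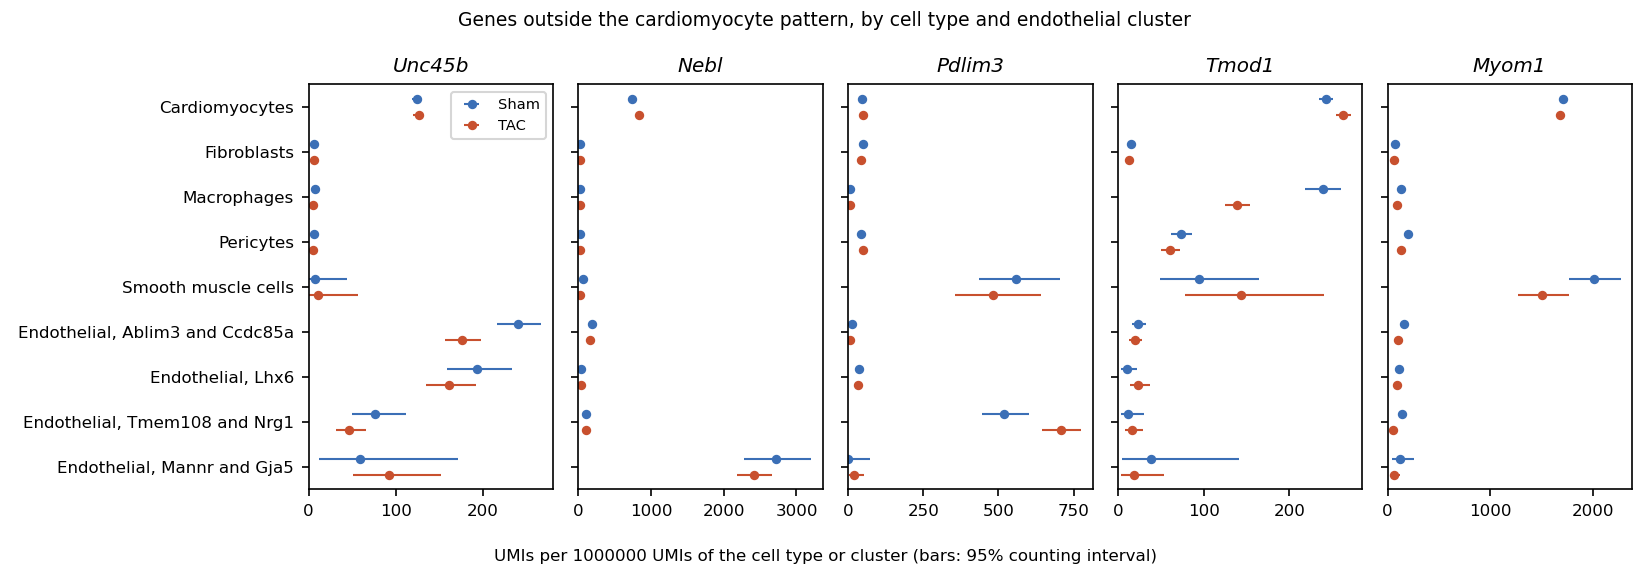
Levels of genes that depart from the cardiomyocyte pattern, by cell type and by endothelial cluster (UMIs per 1000000, bars for the 95% counting interval, 1 point per library). Nebl peaks at 2712 and 2414 in the cluster led by Mannr, Pdlim3 at 519 and 707 in the cluster led by Tmem108, and Unc45b at 240 and 176 in the cluster led by Ablim3.

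Other genes stood out in single types. Tmod1 was at 239 in Sham and 139 in TAC macrophages, 0.984 and 0.530 of its cardiomyocyte level, and at 15.3 and 13.1 in fibroblasts. Des was at 84.3 and 73.4 in pericytes, 0.452 and 0.515 of cardiomyocytes, and Flnc at 29.9 and 29.1 in fibroblasts, 0.183 and 0.223. Desmin is also a known protein of pericytes and smooth muscle. Smooth muscle cells were few, 50 and 43, and there 8 genes passed the free RNA rule (Myom1, Tpm1, Tmod1, Ldb3, Pdlim3, Pdlim5, Des and Xirp1), although only 2 reference genes in Sham and 1 in TAC had enough UMIs to set it and Xirp1 rested on 5 UMIs in each library. Des, with 11 and 10 UMIs, and Tmod1, with 12 and 14, were sparse there as well. Pdlim3 was at 558 and 482 per 1000000 in smooth muscle cells, 12.2 and 10.0 times its cardiomyocyte level, Tpm1 at 1579 and 1824, and Myom1 at 2011 and 1506 from 256 and 147 UMIs.

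Summed over the 42 genes, the TAC to Sham ratio was 0.804 in cardiomyocytes, 0.804 in fibroblasts, 0.759 in endothelial cells, 0.675 in macrophages and 0.750 in pericytes. Without Ttn it was 0.955, 0.863, 0.815, 0.720 and 0.788, so that in cardiomyocytes the sum of the other 41 genes was close to equal. Of the 5 lower genes all but Xirp1 had 50 UMIs in those types. Ttn had a ratio of 0.606 in fibroblasts, 0.574 in endothelial cells, 0.524 in macrophages and 0.624 in pericytes, and Myom2 had 0.490, 0.331, 0.335 and 0.413. Mybpc3 had 0.599, 0.460, 0.427 and 0.468, and Xirp2 0.791, 0.631, 0.575 and 0.528, with all these intervals below 1 except that of Xirp2 in fibroblasts (0.592 to 1.05). In the few smooth muscle cells the summed ratio was 0.674, and 0.862 without Ttn. Ttn itself was farther from 1 there than in the other types, at 0.176 (0.132 to 0.231) from 444 and 60 UMIs. The values in these other types are not independent of the cardiomyocyte values, because they share the libraries and may share free RNA. The free RNA itself was not measured.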

How the data were processed

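Hearts were dissociated and single-cell 3′ libraries were made on the 10x Genomics platform, 1 per condition. The UMI count tables that the authors deposited hold whole-number counts per gene and barcode, with no normalization, and the labels name Cell Ranger 7.1.0, while the study’s methods name an earlier version of it and of the kit than the labels do. The genome build, the use of introns and strand, and the rule that filtered barcodes are not given in the sources used here. The lowest barcode held 500 UMIs, so fewer UMIs were not analysed here. Of the gene IDs, 94.1% were in GENCODE M21 (GRCm38), which gave the gene coordinates and overlaps.

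Barcodes with at least 200 genes were kept, and Scrublet (rate 0.8% per 1000 cells) marked 459 Sham (4.62%) and 479 TAC (4.82%) barcodes as doublets. Without them, 9475 and 9452 cells remained. Libraries were clustered 1 at a time with scanpy 1.11.5 (Python 3.11.15; 2000 variable genes, 30 components, 15 neighbours, Leiden resolution 1) without the 42 genes and mitochondrial genes. Clusters were named by at least 3 fixed markers found in at least 10% of cells and 1 or more log2 units above the median cluster, a rule chosen after a first clustering had been seen. Raw UMIs were summed per type. Levels have exact Poisson, ratios exact conditional binomial and shares Clopper-Pearson 95% intervals (scipy 1.17.1), and no p-value was computed. The code was checked on simulated counts that held counting error alone, so the check does not cover spread between cells or animals. All 42 genes are named. Other genes were named by a fixed rule, the up to 4 with the highest and the lowest ratio among those called. The members and lists were chosen with earlier results of these data known.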

Additional observations from a re-analysis of the deposited data

How the results depend on the processing

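No paired analysis was possible because the Sham and TAC arms are a single library apiece. Over 20 alternative settings (filters, doublets, resolution, cell sets and scaling) no ratio called in cardiomyocytes changed direction. The ratio stayed within 0.40 to 0.477 for Myom2, 0.505 to 0.657 for Xirp1, 0.603 to 0.679 for Ttn, 0.593 to 0.679 for Xirp2 and 0.625 to 0.699 for Mybpc3, and 1.37 to 2.66 for Myl4. Counts of the 42 genes higher in TAC became 2 with each cell weighted equally, with no minimum of UMIs and without Malat1 in the total, 3 in the Ptgds cluster alone (Tpm1, Tcap and Trim55, while Myl4, at 1.37 with an interval of 0.785 to 2.36, was no longer counted), 8 at a looser fold limit and 0 at 2-fold. Counts lower became 14 at the looser limit, 1 at 2-fold and 2 in the Pdzrn4 cluster alone, and were 7 with each cell weighted equally, which added Tnnt2 (0.636) and Ankrd23 (0.630). For the fixed list of other genes, higher counts became 3 with equal weights, 14 at the looser limit and 0 at 2-fold, and lower counts 14 and 2 at those limits. Without Malat1, Mybpc3 was at 0.675, just outside the limit, and Tpm1 at 1.501, just inside. Genes above free RNA became 1 in fibroblasts (Pdlim3) when each cell was typed from its own markers, and 2, 3, 1 and 3 in fibroblasts, endothelial cells, macrophages and pericytes against the median reference gene. With no doublets removed there was no smooth muscle cluster to give a value. The settings for the joint clusters, Malat1, the median reference gene and the marker reference were added after the data had been seen. Depth limits Myl4, Myl7 and the smooth muscle values most.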

Other observations

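Fibroblasts were not uniform for Pdlim3 and Flnc, in clusters chosen after their values had been seen. A TAC cluster of 109 fibroblasts led by Nkain2, Sntg1 and Thsd7b, to which no Sham cluster corresponded, held Pdlim3 at 252 per 1000000 (197 to 318, 71 UMIs), 5.25 times its cardiomyocyte level. In Sham, Pdlim3 was highest among fibroblasts in the cluster led by Acss3 and Lvrn, at 76.7 (65.3 to 89.5). Flnc was highest in the fibroblast cluster led by Gfpt2 and Adgrd1 in both libraries, at 50.1 (37.1 to 66.3) in Sham and 57.2 (43.3 to 74.1) in TAC, and had 1 UMI in the TAC cluster led by Nkain2.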
